A study of Mus musculus with 11 samples.

Results

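The BCL2 family decides at the mitochondrion whether a cell enters apoptosis, and 10 of its genes were followed in hematopoietic stem and progenitor cells with wild-type, mutant or absent p53. The genes were taken by symbol from the deposited RNA-seq count table, where all 10 had a row among 12647 genes and all 10 were among the 12625 genes tested. They are the anti-apoptotic genes Bcl2, Bcl2l1 (encoding BCL-XL) and Mcl1, the effectors Bax and Bak1, and the BH3-only genes Bid, Bcl2l11 (BIM), Bbc3 (PUMA), Pmaip1 (NOXA) and Bad. RNA came from untreated LSKs, the Lin-Sca1+Kit+ fraction of bone marrow that holds hematopoietic stem cells and multipotent progenitors, and 3 libraries were sequenced for each of 3 genotypes. The p53+/+ mice carried HUPKI alleles, in which mouse Trp53 is a human and mouse chimera, and the p53R248W/+ mice carried 1 such allele with the R248W missense mutation, expressed from the mouse Trp53 promoter. The p53-/- mice carried no intact p53 allele, and the sources used here do not say whether they had any humanized allele. All mice were on a C57BL/6 background, young and tumor-free.

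Anti-apoptotic members bind and hold back the effectors and the BH3-only proteins, while BAX and BAK, once active, open the outer mitochondrial membrane and release cytochrome c. BH3-only proteins carry stress signals to this switch, and Bbc3, Pmaip1 and Bax are textbook transcriptional targets of p53. Hematopoietic stem cells need MCL1 to survive, and forced expression of BCL2 protects them from many death stimuli.

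The libraries held between 18021375 and 29750702 counted reads on genes (median 20116602), the most in p53R248W/+ replicate 1, which also had the lowest TMM factor. Levels are CPM, counts scaled to the library total and by TMM factors of 0.935 to 1.04, and levels compared between genes are CPM per kb of the deposited gene length. The LSK markers Kit (427 to 861 CPM) and Ly6a, which encodes Sca1 (149 to 444 CPM), were read in every library. Trp53 had 125, 207 and 376 CPM in p53+/+, 219, 240.5 and 235 CPM in p53R248W/+, and 129, 127 and 112 CPM in p53-/- libraries, so the lowest p53+/+ library lay inside the p53-/- range. These counts cover the whole gene, the deleted part of the null allele is not given in the sources used here, and they do not check the labels. Cdkn1a, the p53 target encoding p21, separated the p53-/- libraries (8.27 to 17.8 CPM) from the p53+/+ (43.6 to 67.0 CPM) and p53R248W/+ libraries (35.7 to 52.1 CPM). Replicate 2 of p53+/+ and replicate 2 of p53R248W/+ stood apart. Both held reads of 4 Y-linked genes (110.4 and 69.8 CPM in sum) together with Xist (64.95 and 149 CPM), and the neutrophil granule and S100 genes Ltf, Camp, Ngp, S100a8 and S100a9, named after their values were seen, summed to 3297 and 2114 CPM in them against 8.004 to 118 CPM in the other 7 libraries. Y-linked genes were also read in replicate 3 of p53R248W/+ (184 CPM in sum) and were below 1 CPM in the other 6 libraries, among them all p53-/- libraries. The calls of genes named below are also given without both replicate 2 libraries.

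In p53+/+ LSKs the mean levels of the 10 genes spanned a 72.8-fold range per kb. Bax stood highest with 93.7 ± 22.0 CPM per kb (SD, n = 3), followed by Mcl1 with 79.4 ± 11.2 and Bid with 59.9 ± 0.614 CPM per kb. Bad (28.3 ± 4.73), Bcl2 (23.7 ± 1.06), Bcl2l1 (11.9 ± 1.06) and Bbc3 (8.24 ± 2.14 CPM per kb) lay in the middle. At the bottom were Bcl2l11 with 3.42 ± 0.292, Bak1 with 2.31 ± 0.548 and Pmaip1 with 1.29 ± 0.220 CPM per kb. The libraries of neighbors in this order overlapped for Bax and Mcl1 and for Bad and Bcl2, and did not overlap for the other pairs. Among all genes of the table Bax was at the 91.0th and Pmaip1 at the 14.6th percentile of p53+/+ levels per kb. The order was nearly the same in the other genotypes. Mcl1 led Bax in p53R248W/+, where their libraries overlapped, and in p53-/-, where they did not. In p53-/- LSKs Bcl2 moved from the fifth to the sixth place, below Bcl2l1.

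**Figure D1:**
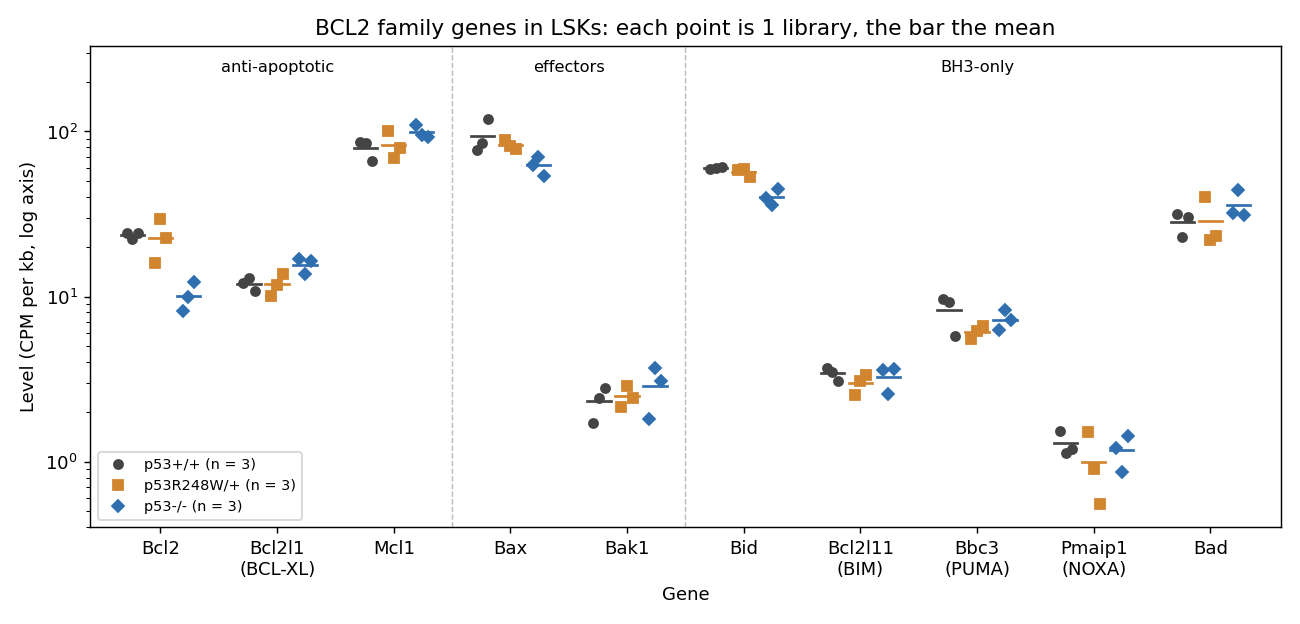
Level of each BCL2 family gene in CPM per kb of gene length (log axis) in each of the 9 libraries, grouped by genotype, with points for libraries and bars for the mean. The 3 p53-/- libraries lie below all others for Bcl2 (8.16 to 12.2 CPM per kb), Bax and Bid, and above the p53+/+ libraries for Bcl2l1 and Mcl1.

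The comparison of p53-/- with p53+/+ asks how the family differs between untreated LSKs without and with p53. Of the 10 genes, 1 passed edgeR's quasi-likelihood test at an adjusted p below 0.05, Bcl2, which was lower, while 3.5% of all genes tested passed, 1.25% higher and 2.25% lower. By unadjusted p, 3 genes were below 0.05 (Bcl2, Bax and Bid, all lower in p53-/-), where 23.4% of all genes were. Libraries of the genotypes did not overlap for 5 genes, 2 higher and 3 lower in p53-/-, beside 31.4% of all genes, 15.4% higher and 16% lower. The median log2 fold change of the 10 genes was -0.10, against -0.00125 over all genes. In the comparison of p53R248W/+ with p53-/-, which shares the p53-/- libraries, 1 gene passed, again Bcl2 and higher in p53R248W/+, beside 3.44% of all genes, 2.34% higher and 1.1% lower. By unadjusted p, 3 genes were below 0.05 (Bcl2, Bcl2l1 and Bid), where 21% of all genes were. Here 3 genes did not overlap, all higher in p53R248W/+ (Bcl2, Bax and Bid), where 12.1% of all genes were higher without overlap and 24.2% did not overlap in either direction. The median of the 10 genes was -0.22, against 0.02 over all genes.

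The comparison of p53R248W/+ with p53+/+ asks whether 1 mutant allele changes the family. None of the 10 genes passed edgeR's test, and none was below 0.05 by unadjusted p, which 0.958% of all genes were. Over all genes 1 passed (0.00792%), and it was not a member. DESeq2 and limma-voom called none of the 10 either, and no gene was without overlap, beside 5.04% of all genes, 2.66% higher and 2.38% lower. Log2 fold changes ran from -0.44 for Bbc3 to 0.11 for Bak1, with a median of -0.07, and adjusted p-values were 1.00 throughout in edgeR. The 95% intervals, which are not adjusted over all genes, reached from 0.32 to 0.97 to either side of the estimate. Changes within these intervals are not excluded at this depth and number of libraries. Larger changes could also miss the threshold, since it is set on p adjusted over all genes.

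**Figure D2:**
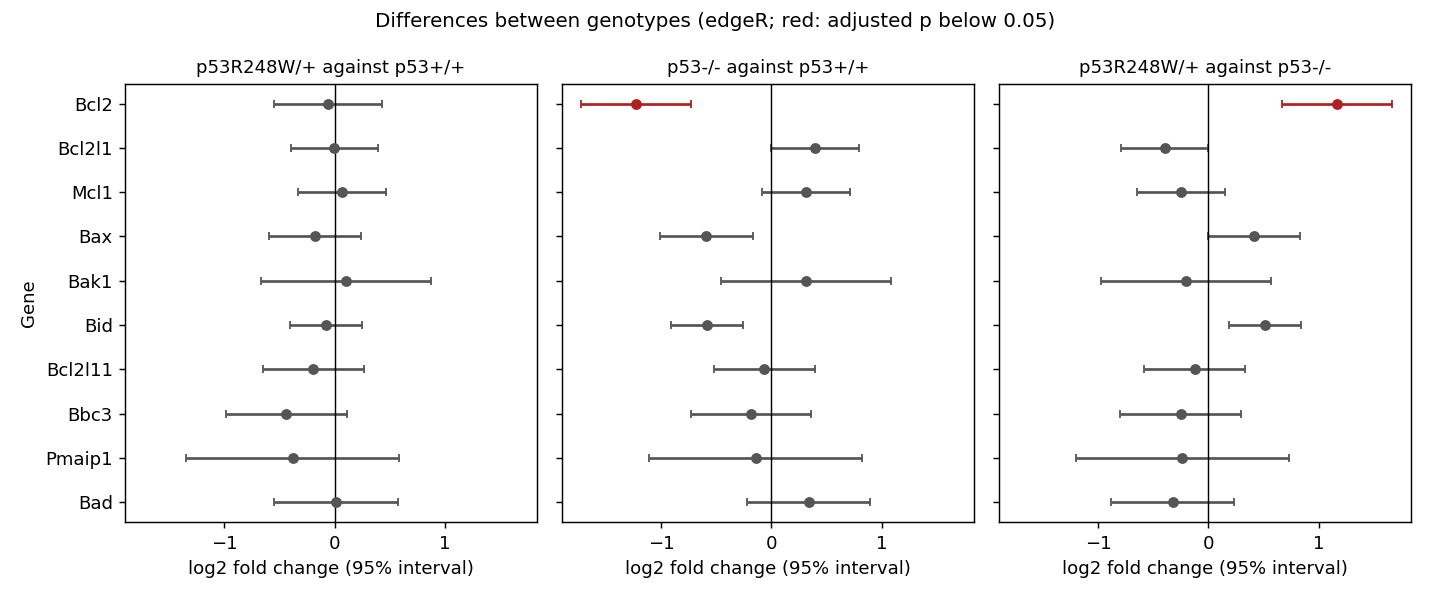
Log2 fold change of each gene between 2 genotypes with its 95% interval from the edgeR fit to 9 libraries, 1 panel per comparison, with genes at an adjusted p below 0.05 in red. Only Bcl2 is red, at -1.23 in p53-/- against p53+/+ and at 1.16 in p53R248W/+ against p53-/-.

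Bcl2 (NCBI gene 12043, chr1:106538176-106714290, GRCm38.p6), the founding anti-apoptotic member, had 187, 174 and 188 CPM in p53+/+, 123, 228 and 175 CPM in p53R248W/+, and 63.2, 77.0 and 94.5 CPM in p53-/- libraries. Every p53-/- library was below every library of the other genotypes, while the p53R248W/+ libraries lay on both sides of the p53+/+ range. The read counts behind these values were 1161 to 1924 in p53-/- and 3375 to 4729 elsewhere. Bcl2 in p53-/- was at 42.7% of p53+/+, a log2 fold change of -1.23 ± 0.23 (SE, 95% interval -1.72 to -0.73, adjusted p = 0.0214 by edgeR). It ranked 102nd by p among the 12625 genes. In p53R248W/+ Bcl2 was 2.24-fold higher than in p53-/- (95% interval 1.59 to 3.16, adjusted p = 0.0234 by edgeR), and against p53+/+ its log2 fold change was -0.06 (-0.55 to 0.43).

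Single libraries decided whether these Bcl2 differences passed the threshold, though the direction held in all 19 alternative fits of both comparisons. For p53-/- against p53+/+ the adjusted p by edgeR was 0.0560 without p53+/+ replicate 2, 0.0901 without p53+/+ replicate 3, 0.0852 without p53-/- replicate 1 and 0.0739 without p53-/- replicate 2, with log2 fold changes from -1.38 to -1.08 over all fits. Leaving out both libraries with Y-linked genes and Xist gave -1.26 with an adjusted p of 0.0411 by edgeR, and keeping only the libraries with Y-linked genes below 1 CPM gave -1.26 and 0.0112. The call held in 15 of 19 alternative fits of this comparison and in 11 of 19 of p53R248W/+ against p53-/-. In the latter the log2 value was 0.93 without p53R248W/+ replicate 2, the highest library (adjusted p = 0.0921 by edgeR), 0.92 without both libraries that stood apart (0.117), 0.96 in a fit with a covariate for Y-linked genes (0.0808) and 0.64 with only the libraries low in Y-linked genes, which leaves 1 p53R248W/+ library that is assumed to vary like the other groups (0.276). It also missed the threshold without p53R248W/+ replicate 3 (0.0749), p53-/- replicate 1 (0.0903) or p53-/- replicate 2 (0.0718), and in the fit to 6 libraries (0.0511).

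Bcl2l1 and Mcl1, the other anti-apoptotic genes, were not lower in p53-/-. Bcl2l1 (NCBI gene 12048, chr2:152758732-152833803), whose product BCL-XL guards maturing blood cells, had 38.3, 41.1 and 34.4 CPM in p53+/+, 32.2, 37.6 and 43.8 CPM in p53R248W/+, and 53.7, 43.6 and 52.2 CPM in p53-/- libraries. Mcl1 (NCBI gene 17210, chr3:95656944-95663179), which encodes a protein of short half-life, had 303, 296 and 232 CPM in p53+/+, 349, 240.4 and 279 CPM in p53R248W/+, and 381, 332 and 321 CPM in p53-/- libraries. For both genes all p53-/- libraries were above all p53+/+ libraries and overlapped with the p53R248W/+ range. Neither difference passed the test. The log2 fold change of p53-/- against p53+/+ was 0.39 for Bcl2l1 (95% interval -0.00186 to 0.79, adjusted p = 0.215 by edgeR) and 0.32 for Mcl1 (-0.08 to 0.72, adjusted p = 0.324). Counting was not stated to use strand, and Bcl2l1 overlaps Cox4i2, so its count may hold reads of that gene.

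Bax (NCBI gene 12028, chr7:45461695-45466903), the main effector transcript of these cells, had 67.3, 73.8 and 103 CPM in p53+/+, 77.0, 70.8 and 68.2 CPM in p53R248W/+, and 54.7, 61.2 and 46.5 CPM in p53-/- libraries. All p53-/- libraries were below all others, and the p53R248W/+ libraries lay within the p53+/+ range. The log2 fold change of p53-/- against p53+/+ was -0.59 ± 0.19 (SE, 95% interval -1.01 to -0.17), with an unadjusted p of 0.00994 and an adjusted p of 0.0979 by edgeR, which misses the threshold. It was -0.38 without p53+/+ replicate 3, the highest library (adjusted p = 0.347 by edgeR), and -0.65 without both replicate 2 libraries (0.235). The log2 fold change was 0.41 (-0.00732 to 0.83) for p53R248W/+ against p53-/- and -0.18 (-0.60 to 0.24) against p53+/+.

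Because Bax is a p53 target, the RefSeq promoter windows of the family (300 bases, 250 before to 50 after a start site, GRCm38.p6) were searched on both strands for the p53 half-site, a palindromic motif of 10 bases. Windows were used for 9 of the genes, 15 windows in all, and 1 of them, that of Bax, held a match. No window of Pmaip1, also a p53 target, is among the 15, and whether it holds a match is not reported here. Over all 32851 windows of the genome 8.36% held one, and 0.0731% held a pair of half-sites close enough for a full site, which none of the 15 did. The Bax match is shown with the half-site in capitals. The stretch printed is chr7:45467080-45467109 on the minus strand, and the half-site in it begins 201 bases before the start site. A match describes the letters in the window and no binding was measured here.
Bax: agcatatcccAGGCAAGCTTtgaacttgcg

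Bak1 (NCBI gene 12018, chr17:27019812-27028627), the second effector, was read at a low level, with 3.43 to 5.58 CPM in p53+/+, 4.28 to 5.78 CPM in p53R248W/+, and 3.64 to 7.36 CPM in p53-/- libraries. The genotypes overlapped. Its log2 fold change of p53-/- against p53+/+ was 0.31 with a wide 95% interval of -0.46 to 1.08, from 67 to 163 reads per library, and Bak1 overlaps Ggnbp1. Bax made up 97.6% of the summed effector level per kb in p53+/+, 97.1% in p53R248W/+ and 95.6% in p53-/- LSKs.

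Bid (NCBI gene 12122, chr6:120893119-120917062) encodes a BH3-only protein that caspase-8 cleaves, which links death receptors to mitochondria, and it was the most abundant BH3-only transcript. It had 112, 113 and 115 CPM in p53+/+, 110.4, 113 and 99.96 CPM in p53R248W/+, and 74.3, 67.8 and 84.4 CPM in p53-/- libraries. The p53+/+ libraries were nearly equal, the p53R248W/+ libraries were equal or slightly lower, and all p53-/- libraries lay below both. In p53-/- Bid was at 66.6% of p53+/+, a log2 fold change of -0.59 ± 0.15 (SE, 95% interval -0.91 to -0.26), with an adjusted p of 0.0524 by edgeR, just outside the threshold. It passed in 5 of 19 alternative fits, namely DESeq2 (0.00334), the strict filter (0.0463), the fit to 6 libraries (0.0480), the fit without p53R248W/+ replicate 1 (0.0252) and the Y-linked covariate (0.0440), and the log2 value stayed between -0.67 and -0.51 in all of them. Without both libraries that stood apart it was -0.59 with an adjusted p of 0.204 by edgeR. Bid in p53R248W/+ was above p53-/- by a log2 value of 0.51 (0.19 to 0.84, adjusted p = 0.0777 by edgeR) and passed there with DESeq2 alone (0.0131).

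The p53 targets among the BH3-only genes did not separate the genotypes. Bbc3 (NCBI gene 170770, chr7:16308398-16318334), whose product PUMA binds all anti-apoptotic members, had 19.1, 18.3 and 11.4 CPM in p53+/+, 10.9, 12.2 and 13.1 CPM in p53R248W/+, and 12.5, 16.4 and 14.1 CPM in p53-/- libraries. The lowest p53+/+ library was within the range of p53R248W/+ and below all p53-/- libraries. The log2 fold change was -0.44 in p53R248W/+ (95% interval -0.98 to 0.11, unadjusted p = 0.108 by edgeR) and -0.19 in p53-/- (-0.73 to 0.36) against p53+/+. Pmaip1 (NCBI gene 58801), which encodes NOXA, a partner of MCL1, was the least abundant member, with 4.08, 2.99 and 3.18 CPM in p53+/+, 3.99, 2.41 and 1.46 CPM in p53R248W/+, and 3.21, 2.30 and 3.78 CPM in p53-/- libraries. Its libraries overlapped between all genotypes. With 32 to 111 reads per library, its log2 fold change against p53+/+ was -0.38 (-1.35 to 0.59) in p53R248W/+ and -0.14 (-1.11 to 0.82) in p53-/-. A change within these intervals is not excluded at this depth. Cdkn1a, in contrast, differed in the same libraries, with a log2 fold change of -2.07 in p53-/- against p53+/+ (adjusted p = 0.00914 by edgeR).

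Bcl2l11 and Bad overlapped between all genotypes. Bcl2l11 (NCBI gene 12125, chr2:128126038-128162547), which encodes BIM, a killer of blood cells deprived of cytokines, had 22.1 to 26.1 CPM in p53+/+, 18.1 to 24.0 CPM in p53R248W/+, and 18.4 to 25.8 CPM in p53-/- libraries. Bad (NCBI gene 12015, chr19:6941861-6951905), whose product is held inactive by survival-factor phosphorylation, had 34.8 to 48.1 CPM in p53+/+, 33.6 to 61.3 CPM in p53R248W/+, and 47.4 to 67.0 CPM in p53-/- libraries. Against p53+/+ the log2 fold change in p53-/- was -0.07 (95% interval -0.52 to 0.39) for Bcl2l11 and 0.34 (-0.22 to 0.89) for Bad. Bcl2l11 overlaps Acoxl and Bad overlaps Gpr137, whose reads may be in their counts. Of genes that are not protein-coding, Gm37053 and Mir3473f overlap Bcl2, Gm32211 overlaps Bcl2l1, Gm17812 overlaps Bid and Gm19053 overlaps Bad.

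Summed by role, the anti-apoptotic total overlapped between genotypes, while the share of Bcl2 in it was lowest in the 3 p53-/- libraries. The 3 anti-apoptotic genes summed to 115 ± 11.7 CPM per kb in p53+/+, 118 ± 8.11 in p53R248W/+ and 125 ± 8.37 in p53-/- LSKs (SD, n = 3), and the ranges overlapped. Within that sum Bcl2 held 20.8% ± 2.81 in p53+/+, 19.6% ± 7.05 in p53R248W/+ and 8.20% ± 2.02 in p53-/-, while Mcl1 held 68.9%, 70.2% and 79.3%. The ratio of Mcl1 to Bcl2 per kb was 2.73 to 3.78 in p53+/+ libraries, 2.34 to 6.29 in p53R248W/+ and 7.55 to 13.4 in p53-/-. Effectors summed to 79.2, 87.4 and 122 CPM per kb in p53+/+, 90.7, 84.4 and 80.9 in p53R248W/+, and 64.7, 74.1 and 56.5 in p53-/- libraries, without overlap between p53-/- and the others. The 5 BH3-only genes summed to 101 ± 4.72, 95.6 ± 11.3 and 87.3 ± 4.68 CPM per kb in p53+/+, p53R248W/+ and p53-/-, and Bid held 59.3%, 59.9% and 45.9% of these sums. The ratio of the anti-apoptotic sum to the sum of the effectors and BH3-only genes was 0.456 to 0.665 in p53+/+, 0.625 to 0.694 in p53R248W/+ and 0.716 to 0.912 in p53-/- libraries. Per kb this ratio was thus highest in all p53-/- libraries although Bcl2 was lowest there. That order depends on the division by gene length, which was 7738 bases for Bcl2 and 869 for Bax. In CPM not divided by length, the ratio did not separate the p53-/- libraries from the others. These sums are descriptions of RNA levels with no test, and they take no account of protein.

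**Figure D3:**
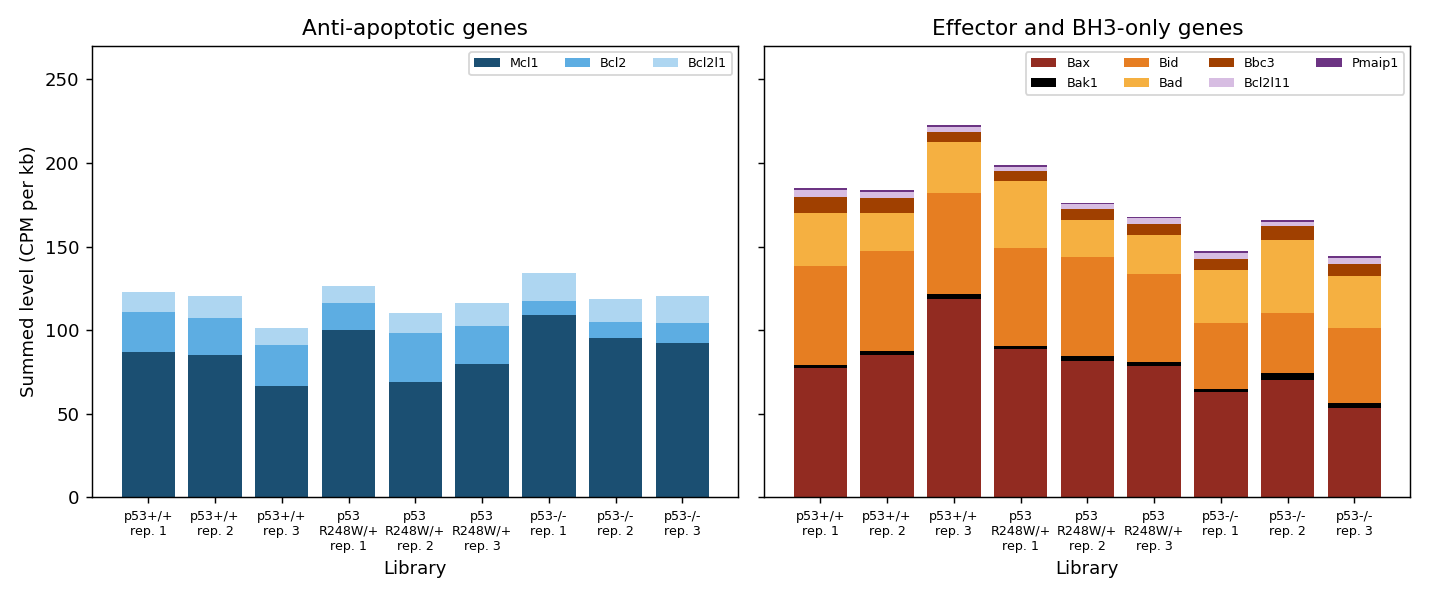
Stacked bars of the level per kb of the anti-apoptotic genes (left) and of the effector and BH3-only genes (right) in each library, in CPM per kb. The Bcl2 band is thinnest in the p53-/- libraries while the anti-apoptotic totals stay between 102 and 134, and the right-hand totals hold less Bax and Bid in p53-/-.

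Other genes of the pathway were read from lists in each comparison. As background for these and the later lists, 3.5% of all genes passed in p53-/- against p53+/+, and 23.4% were below 0.05 by unadjusted p. These shares were 3.44% and 21% in p53R248W/+ against p53-/-, and 0.00792% and 0.958% in p53R248W/+ against p53+/+. Of 16 other BCL2 family genes, 9 were in the table, none passed edgeR's test or was below 0.05 by unadjusted p in any comparison, and their median log2 fold change was 0.07 in p53-/- and 0.17 in p53R248W/+ against p53+/+. The apoptosome and caspase list, which covers the steps after cytochrome c release, had 15 of 15 genes in the table and none past the test in any comparison, with a median of 0.04 in p53-/-, where 3 genes were below 0.05 by unadjusted p. Of 9 inhibitor of apoptosis genes, 8 were in the table and none passed (median 0.31 in p53-/-, 3 below 0.05 by unadjusted p). In the death receptor list, with 8 of 9 genes in the table, 1 rose in p53-/-, Tnfsf10, which encodes the ligand TRAIL. It went from 36.6 ± 2.35 CPM in p53+/+ to 64.6 ± 8.62 CPM in p53-/- (log2 fold change 0.82, adjusted p = 0.0294 by edgeR) and was lower in p53R248W/+ than in p53-/- (-0.72, adjusted p = 0.0429). Without both replicate 2 libraries Tnfsf10 missed the threshold in both comparisons, at 0.86 (adjusted p = 0.145 by edgeR) and -0.76 (0.204). The median of that list was 0.39 in p53-/- against p53+/+.

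Among 10 regulators of BCL2 family genes and proteins, none passed in any comparison (median -0.21 in p53-/-, 2 below 0.05 by unadjusted p). Of 24 p53 targets outside the family, 23 were in the table, among them Trp53 itself. In p53-/- against p53+/+, 11 of the 23 were above 0 and 12 below, and 11 were below 0.05 by unadjusted p. Trp53, the gene altered in these mice, was among those below 0 and those below 0.05 (-0.94, unadjusted p = 0.00943 by edgeR). Past the threshold were 3 of the 23, beside 3.5% of all genes. Cdkn1a and Pidd1, which encodes a caspase-2 activator, fell, Pidd1 from 39.3 ± 10.5 to 13.1 ± 3.30 CPM (log2 fold change -1.59, adjusted p = 0.0377 by edgeR). Sesn1, which encodes a stress-induced inhibitor of mTORC1 signaling, rose from 230 ± 31.6 to 388 ± 44.6 CPM (0.76, adjusted p = 0.0332 by edgeR). Without both replicate 2 libraries Cdkn1a still passed (-2.17, adjusted p = 0.0172 by edgeR), while Pidd1 (-1.57, 0.109) and Sesn1 (0.78, 0.145) did not. The median of this list was -0.13. In p53R248W/+ against p53-/-, Cdkn1a was higher (1.76, adjusted p = 0.0126 by edgeR) also without both replicate 2 libraries (1.82, 0.0347), and no other gene of the list passed. None of these lists held a gene that passed in p53R248W/+ against p53+/+.

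Markers of other cells and of cell state moved with the p53-/- genotype, and their part in the Bcl2, Bax and Bid values was not tested. All 13 LSK markers were in the table, and 1 of them, Hlf, a stem cell transcription factor gene named after its values were seen, rose in p53-/- against p53+/+ (log2 fold change 1.14, adjusted p = 0.0242 by edgeR), and missed the threshold without both replicate 2 libraries (1.22, 0.0673). All 13 granulocyte and monocyte markers were below 0 in that comparison, though none passed. They summed to 2997 to 8478 CPM in p53+/+, 4450 to 9969 CPM in p53R248W/+ and 2202 to 2615 CPM in p53-/- libraries, with Mpo the most abundant (1125 to 1456 CPM in p53-/-, 1712 to 3087 CPM in p53+/+). Without both replicate 2 libraries the sums were 2997 to 4206 CPM in p53+/+ and 4450 to 5725 CPM in p53R248W/+, 11 of 13 markers were below 0 in p53-/- against p53+/+, and Ltf passed (-3.57, adjusted p = 0.0455 by edgeR). Erythroid and megakaryocyte markers (9 of 11 in the table, Itga2b the most abundant at 56.7 to 108 CPM) summed to 198 to 237 CPM in p53+/+ and 152 to 187 CPM in p53-/-, and lymphoid markers (9 of 13, Nkg7 the most abundant at 197 to 407 CPM) to 410.4 to 444 and 306 to 376 CPM. None of them passed in this comparison, and the B and T cell genes Pax5, Ighm, Cd3e and Cd3d had no row.

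Of 24 mitotic cell cycle genes, 23 were below 0 in p53-/- against p53+/+ (median -0.51), and Top2a and Mki67, named after their values were seen, passed. Of 12 dissociation and stress response genes, 11 were below 0 (median -1.96), and 3 passed, Fos, Jun and Hspa1a, also named after their values were seen. Without both replicate 2 libraries Fos and Jun still passed, and Top2a, Mki67 and Hspa1a did not (adjusted p of 0.0703, 0.0617 and 0.0679 by edgeR). The stress response list summed to 1858 to 4403 CPM in p53+/+, 1637 to 6147 CPM in p53R248W/+ and 935 to 1356 CPM in p53-/- libraries, and the p53R248W/+ sums began at 4052 CPM without replicate 2. Against p53-/-, p53R248W/+ had all 13 granulocyte and monocyte markers above 0, with 2 past the test (Mpo and Ctsg), and 1 lymphoid marker past the test (Nkg7, higher), named again after their values were seen. In that comparison 22 of 24 cell cycle genes were above 0, with 2 past the test, and 11 of 12 stress response genes, with 3 past it. Without both replicate 2 libraries Mpo still passed (1.45, adjusted p = 0.0187 by edgeR), Camp passed (3.99, 0.0320), and Ctsg (0.0968) and Nkg7 (0.141) did not. No cell cycle gene passed without them, while 5 stress response genes did (Fos, Dusp1, Jun, Fosb and Junb, all higher in p53R248W/+). Against p53+/+ no gene of these lists passed in p53R248W/+. In RNA from whole LSK fractions, fewer cells of a type and less RNA per cell cannot be told apart. The labels do not say that the libraries of a genotype came from separate mice, so the p-values measure only the spread between these libraries.

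**Figure D4:**
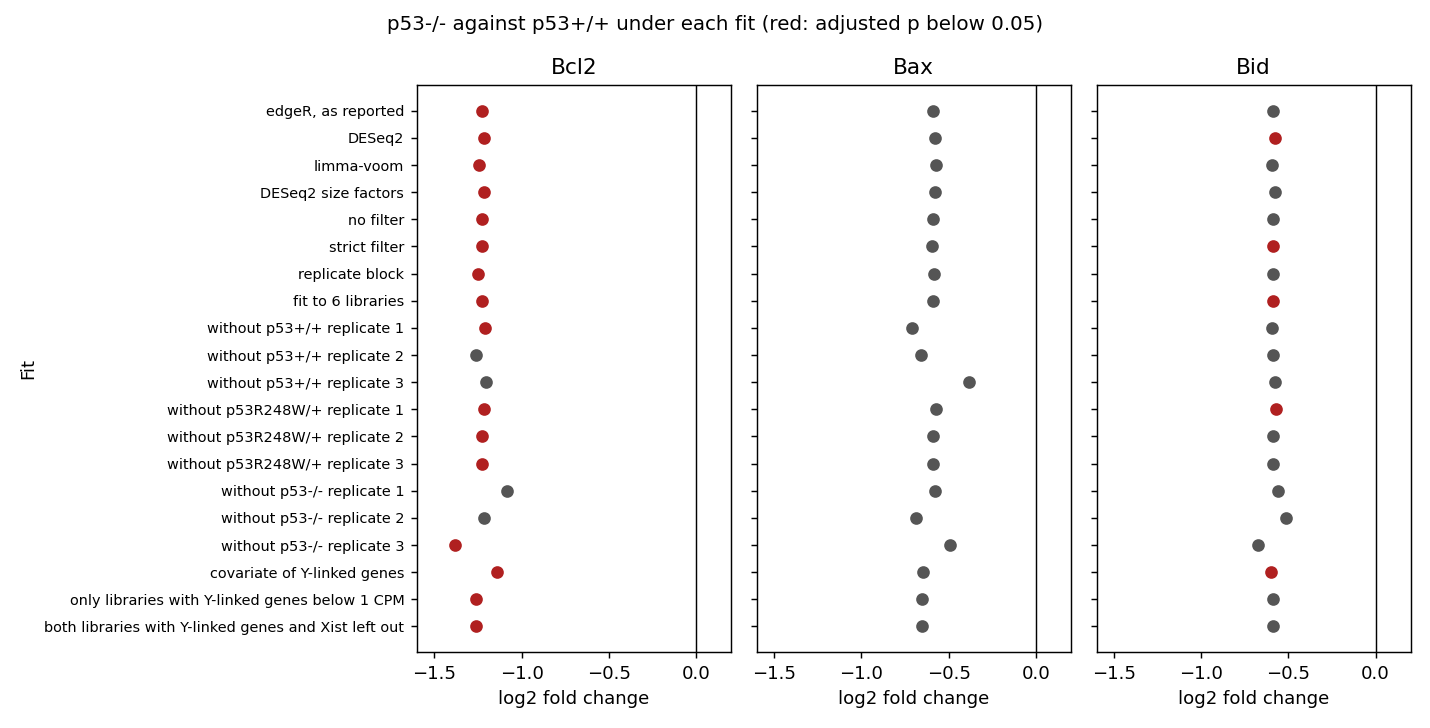
Log2 fold change of Bcl2, Bax and Bid in p53-/- against p53+/+ under each fit, with red points where the adjusted p was below 0.05. All points lie below 0, Bcl2 between -1.38 and -1.08, Bax between -0.71 and -0.38 and Bid between -0.67 and -0.51, and Bax is red in no fit.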

How the data were processed

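Read counts per gene were deposited by the authors as whole numbers without normalization, for 3 p53+/+, 3 p53R248W/+ and 3 p53-/- LSK libraries. The submitters' processing notes name STAR 2.5.2b, featureCounts of Subread 1.5.0, edgeR and the mm10 build, with no roles given. The study's methods describe oligo(dT) selection and random hexamer priming, the labels a SMART-Seq kit for low input. Gene lengths deposited in the table come from an annotation not given in the sources used here. Columns of the same table with the authors' own comparisons (log2 fold changes, p-values and FDRs) were not used, and the H3K27me3 ChIP-seq data were not analysed here.

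Counts were filtered with filterByExpr, scaled by TMM factors and fitted over the 9 libraries by quasi-likelihood in edgeR 4.0.16 (R 4.3.3). Adjusted p-values are Benjamini-Hochberg values across 12625 genes. Intervals are 95% intervals of that fit. The code was tested on simulated data. As alternatives, limma-voom (limma 3.58.1) or DESeq2 1.42.0 replaced edgeR, DESeq2's size factors replaced TMM, and the filter was dropped or raised to 10 counts per library, the strict filter. Others were a block by replicate number, fits to 6 libraries, a threshold of 0.10 and each library left out. A covariate of Y-linked genes, only libraries with those genes below 1 CPM, and leaving out both libraries with Y-linked genes and Xist (above 20 CPM) were chosen after seeing the data. Named genes were the 10 members, Trp53, Cdkn1a, Kit, Ly6a, the most abundant gene of each list of other cells, and up to 3 genes per direction of each pathway list past the threshold. Other genes named (sex-linked, granulocyte, stem cell, cell cycle and stress genes) were chosen after their values were seen. The members and lists were chosen with earlier results of these data known. Promoter sequences and positions are from RefSeq (GRCm38.p6), and figures and motif searches were made with Python 3.11.15. The LSK markers in p53R248W/+ against p53-/- are not reported here.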

Additional observations from a re-analysis of the deposited data

How the results depend on the processing

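Of 570 repeats of the 30 fold changes of the members (19 alternatives each), 524 kept their direction and side of the threshold, 12 lost and 6 gained a call, and 28 turned direction, none of them a called value. For p53R248W/+ against p53+/+, Bad turned to -0.0113 with limma-voom and -0.0156 with the replicate block, Bak1 to -0.0872 and Pmaip1 to 0.12 with only libraries low in Y-linked genes, and Bcl2l1 to 0.0516 without both libraries that stood apart. For p53-/- against p53+/+, Bcl2l11 turned to 0.00359 with the Y-linked covariate. For p53R248W/+ against p53-/-, Pmaip1 turned to 0.17 and Bad to 0.0592 with that covariate, and Mcl1 to 0.00520, Pmaip1 to 0.35 and Bad to 0.16 with only libraries low in Y-linked genes. Leaving out 1 library at a time gave, for p53R248W/+ against p53+/+, -0.33 to 0.17 for Bad, -0.0707 to 0.26 for Bak1, -0.30 to 0.0289 for Bax, -0.30 to 0.13 for Bcl2, -0.12 to 0.0912 for Bcl2l1 and -0.10 to 0.18 for Mcl1, for p53-/- against p53+/+, -0.15 to 0.0790 for Bcl2l11 and -0.31 to 0.0333 for Pmaip1, and for p53R248W/+ against p53-/-, -0.47 to 0.0168 for Bak1 and -0.70 to 0.0498 for Pmaip1. Members called in p53-/- against p53+/+ were 2 with DESeq2, the strict filter, the fit to 6 libraries or the covariate, 3 at a threshold of 0.10, and 0 to 2 without 1 library. In p53R248W/+ against p53-/- they were 2 with DESeq2 or the threshold of 0.10, 0 with the fit to 6 libraries, the covariate, only libraries low in Y-linked genes or without both libraries that stood apart, and 0 to 1 without 1 library. Genes called in p53-/- against p53+/+, 442 as reported, were 1552 with DESeq2, 894 with the fit to 6 libraries, 1309 at 0.10, 264 with only libraries low in Y-linked genes, 59 without both libraries that stood apart, and 37 to 1485 without 1 library. In p53R248W/+ against p53-/-, 434 as reported, they were 1325, 208, 1069, 46 and 77 in the same order, 170 with the covariate, and 77 to 1559 without 1 library. The highest of these counts, 1485 and 1559, were both reached without p53R248W/+ replicate 1. That library is not part of p53-/- against p53+/+, but all libraries share 1 estimate of the spread in the fit. In p53R248W/+ against p53+/+, 1 as reported, 6 genes passed with DESeq2, 2 at 0.10 and 0 with the strict filter, and 1 without any 1 library. limma-voom called 297 genes in p53-/- against p53+/+. The cause of these differences was not tested. With the replicate number as a block, 882, 672 and 2 genes were called in p53-/- against p53+/+, p53R248W/+ against p53-/- and p53R248W/+ against p53+/+, and no call of a member changed. Deviations from the genotype means of same-numbered p53+/+ and p53R248W/+ libraries correlated at 0.437, 0.591 and 0.0422, and those of the other same-numbered pairs at -0.139 to 0.188, so not every pair passed 0.1 and a shared number was not taken as a pairing. Each p53+/+ library correlated best, among p53R248W/+ libraries, with that of its own number, a hint from the data, while no pairing is stated. The sample labels of replicates 1 and 2 differ between p53+/+ and p53R248W/+ only in WT or R. Labels of the p53-/- libraries follow another form. Whether p53-/- libraries were handled apart is not stated, and any such difference cannot be told apart from genotype, also for Bcl2, Bax and Bid. Of the ranks of a level, 16 of 30 moved when the level was not divided by length. Depth limited Pmaip1 and Bak1 most, with 32 to 163 reads per library.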
